A study of Mus musculus with 18 samples.

Results

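Described here are Foxa2 sites called in livers of Zmpste24 mutant mice and not in wild-type livers. They lay more than 5 kb from the gene-level start of any coding gene, inside chromatin attached to lamin B1 in normal livers. They numbered 2929 of 8177 sites in the mutant list. The members were chosen by position alone, on chromosomes 1 to 19: no base of overlap with any of the 4960 wild-type sites, a midpoint more than 5 kb from the nearest start of a protein-coding gene (GENCODE vM21, mm10), and the midpoint inside a lamin B1 domain of young or old liver. Of these sites, 418 (14.3%) lay in a domain called in young liver only, 1496 (51.1%) in a domain called in old liver only, and 1015 (34.7%) in domains of both ages. These 3 classes are called young-only, old-only and both-age sites below. Distances are to 1 start per gene, so the start of another transcript can be closer. With the starts of every coding transcript the rule gave 2475 sites (364 young-only, 1316 old-only and 795 both-age). Because presence in the mutant list, absence from the wild-type list, distance and lamin class chose the members, those values are given as a description.

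Chromatin came from mouse livers. Foxa2 was immunoprecipitated from male Zmpste24 mutants and wild-type controls, 12 weeks old, with 3 replicates for each genotype. Lamin B1 and trimethylated lysine 9 of histone H3 (H3K9me3) were profiled in wild-type livers at 3 months (young) and 21 months (old), 2 replicates per antibody at each age. The lamin classes therefore describe wild-type livers, and lamin B1 in the mutant livers was not analysed here. Loss of Zmpste24 affects every cell of the animal, and whole liver was used, so cell types cannot be told apart. Replicates were merged before calling and the lists hold positions with no signal, so no spread between mice can be given. All intervals below are 95% intervals for counting error only.

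Foxa2 is a winged-helix pioneer factor of the liver that can bind its site in closed chromatin and helps to set up hepatocyte enhancers. Zmpste24 is the protease that matures prelamin A, and its loss leaves a farnesylated precursor in the nuclear lamina and causes a progeroid disease in mice. Lamina-associated domains are long stretches of mostly silent chromatin held at the nuclear edge, and H3K9me3 is a mark of constitutive heterochromatin that is often found there.

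Forkhead proteins recognise a core of the letters TGTTTAC, and TATTTAC is a common variant. Both words were searched on both strands, and neither contains the other. Other variants of the motif were not searched, so a site without a match can still hold one. The study scanned with a weight matrix and reported the forkhead motif as enriched in sites bound in the mutant only. Within the 200 bases around the midpoint, 2642 members (90.2%) held no match of either word, 267 held 1, 18 held 2 and 2 held 3. From each class, 1 or 2 of the members with the most matches there are printed below because they show the word that the antibody's target is known for, and how seldom it was repeated. The bases are those of RefSeq GRCm38.p6, the build of mm10, on the plus strand, 5′ to 3′, with either word or its complement in capitals. The first 2 are young-only sites, the third is an old-only and the last a both-age site.
Akap13 site, chr7:75460481-75460680: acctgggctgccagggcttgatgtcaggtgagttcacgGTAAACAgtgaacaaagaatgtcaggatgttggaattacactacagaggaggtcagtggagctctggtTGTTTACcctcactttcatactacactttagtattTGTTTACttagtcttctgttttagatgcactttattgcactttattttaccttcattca
Ngly1 site, chr14:16243867-16244066: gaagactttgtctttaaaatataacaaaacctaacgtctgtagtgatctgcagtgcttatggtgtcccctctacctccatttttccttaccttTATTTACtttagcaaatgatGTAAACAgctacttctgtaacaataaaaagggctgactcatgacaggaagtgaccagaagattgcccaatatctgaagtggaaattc
Tff3 site, chr17:31105071-31105270: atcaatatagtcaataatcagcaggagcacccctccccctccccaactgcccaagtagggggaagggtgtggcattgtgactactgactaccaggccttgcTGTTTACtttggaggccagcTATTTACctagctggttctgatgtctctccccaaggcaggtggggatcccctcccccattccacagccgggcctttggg
Pawr site, chr10:108509756-108509955: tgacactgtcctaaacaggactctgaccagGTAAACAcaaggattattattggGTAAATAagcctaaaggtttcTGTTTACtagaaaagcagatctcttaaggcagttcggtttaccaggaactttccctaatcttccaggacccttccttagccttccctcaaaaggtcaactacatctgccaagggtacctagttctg

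The Akap13 site, a 464 bp call in an intron 5.05 kb from the gene start, held 3 copies of TGTTTAC and lay outside H3K9me3 at both ages. Akap13 encodes an anchoring protein of protein kinase A. The Ngly1 site, 342 bp wide and 5.31 kb from the start, held both words 4 bp or more from its midpoint and was also outside H3K9me3. The Tff3 site, 396 bp wide and 24.5 kb from a gene for a secreted trefoil peptide, was in H3K9me3 of old liver only. The Pawr site, 359 bp wide, had 2 copies of TGTTTAC and 1 of TATTTAC and was likewise marked in old liver. All 4 printed sites were narrower than the members' lower quartile of 707 bp, and the median over all members was 944 bp. Not all sites with as many matches are printed, and an old-only site with 2 matches that is left out was 1318 bp wide.

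The rule removed sites step by step. Of 8051 autosomal sites in the mutant list, 6698 (83.2%) had no overlap with a wild-type site, 5911 of those (88.3%) were distal, and 2929 of the distal sites (49.6%) had their midpoint in a lamin B1 domain. Of the sites in domains that had no wild-type overlap, 604 more were within 5 kb of a coding start and were left out. The member nearest to a gene start was 5035 bp away and the closest excluded site 5000 bp. The member nearest to a wild-type site was 126 bp from it, and the smallest overlap that excluded a site was 12 bp. The midpoint nearest to a domain edge was 198 bp inside, and the nearest one outside was 35 bp away. A wild-type call lay within 10 kb of 280 members (9.56%), and the median gap was 104 kb. For mutant-only distal sites outside domains the values were 4.59% and 286 kb. Another member lay within 10 kb of 238 members (8.13%).

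Lamin B1 domains made up 42.4% of the distal autosomes and held 49.6% of the mutant-only distal sites (48.3 to 50.8). The members' density was 3.13 sites per Mb of distal domain (3.01 to 3.24), against 2.34 per Mb outside domains (2.26 to 2.43), a ratio of 1.33. Density was highest where a domain was called at both ages, at 3.72 per Mb (3.49 to 3.95), then 3.32 in young-only (3.01 to 3.66) and 2.78 in old-only domains (2.64 to 2.93). The intervals of the young-only and both-age classes overlap. The rule used the lamin class, so these densities are a description and no test between classes was made. Old-only domains held the most members and were the longest class, 538 Mb against 126 Mb young-only and 273 Mb both-age. Distal sites called in the wild type only were denser in domains than outside by a ratio of 2.36, and sites called in both genotypes by 3.73. The share inside domains was 63.5% (61.7 to 65.3) for wild-type-only and 73.3% (70.5 to 76.0) for sites of both genotypes, each above that of mutant-only sites.

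**Figure D1:**
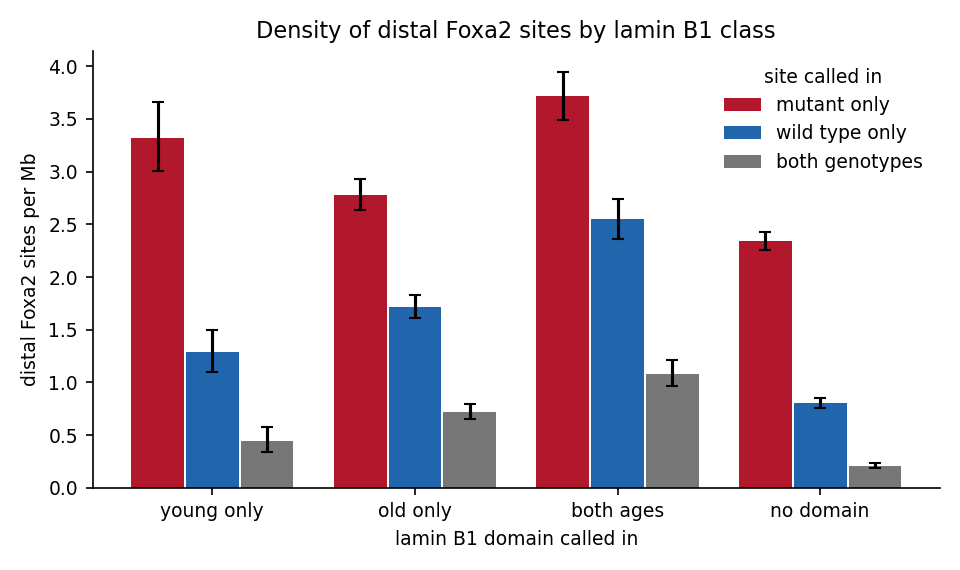
Distal Foxa2 sites per Mb (vertical axis) by the lamin B1 class of their midpoint (horizontal axis), for sites called in the mutant only, in the wild type only and in both genotypes; bars are counts over length and whiskers exact Poisson 95% intervals. Mutant-only sites stand at 3.32, 2.78 and 3.72 per Mb in the 3 domain classes and at 2.34 outside, a smaller step than that of the other 2 sets.

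Members were spread over many domains. Of 1621 autosomal domains of young liver, 747 (46.1%) held at least 1 member, and of 1517 domains of old liver 886 (58.4%) did. The young domain with the most members, chr6:37190001-38650000, held 13 in 1460 kb, or 8.90 per Mb. The old domain with the most, chr5:116100001-124650000, held 29, but it was 8550 kb long, the longest of all, and its density was 3.39 per Mb. A member in a domain of 1 age only did not always sit in a domain particular to that age. Of the young-only sites, 234 (56.0%) were in a young domain that no old domain touched, and the other 184 were in the part of a domain that old liver did not keep. Of the old-only sites, 645 (43.1%) were in a domain without young overlap and 851 (56.9%) in a part that extended a domain of young liver. Sites were not collected at domain borders: 20.6% of young-only, 5.21% of old-only and 16.2% of both-age sites were within 20 kb of an edge, where 19.9%, 6.31% and 15.8% of the length of each class lay.

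By chromosome, members were densest on chromosome 6, with 220 sites at 4.40 per Mb, and sparsest on chromosome 2, with 112 sites at 1.53 per Mb. Chromosome 2 was low in every class, at 2.05 per Mb for young-only, 1.48 for old-only and 1.35 for both-age sites, and also outside domains, at 1.16. Chromosome 17 was low too, at 1.73 per Mb, and held 2 young-only sites. On chromosome 6 the young-only class reached 6.32 per Mb on 37 sites, beside 3.76 for old-only, 5.09 for both-age and 2.88 for sites outside domains. Young-only density was as high on chromosome 15, at 6.39 per Mb on 19 sites. The spread between chromosomes was wider than that between lamin classes, and sites outside domains were also sparsest on chromosomes 17 and 2.

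**Figure D2:**
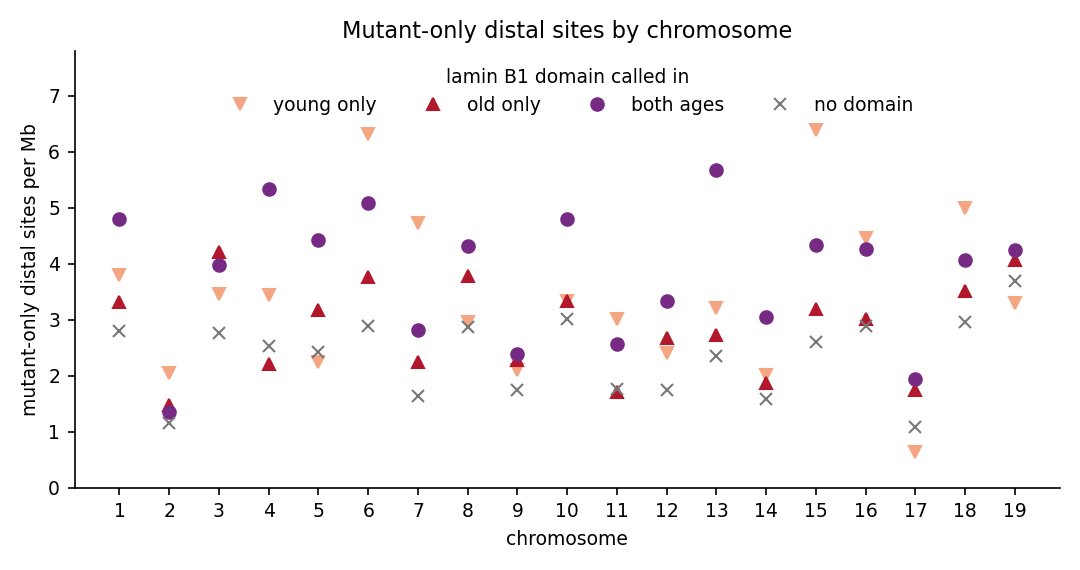
Mutant-only distal sites per Mb of distal length (vertical axis) on each autosome (horizontal axis), with a symbol for each lamin B1 class and a cross for sites outside domains. Chromosomes 2 and 17 are low in all classes, with both-age values of 1.35 and 1.94 per Mb. The young-only class reaches 6.39 per Mb on chromosome 15 and 6.32 on chromosome 6.

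The H3K9me3 lists used here hold 2784 regions in young and 2496 in old liver. The study's text counts more regions at each age, so a site outside these lists may still lie in a region that the study called, and all shares below are shares of the lists used. The study also pooled more H3K9me3 reads from old than from young liver, and the part of depth in these shares was not tested. In the lists used, the members' H3K9me3 status followed the lamin class. Of the old-only sites, 46.7% (44.1 to 49.2) lay in an H3K9me3 region of old liver and 21.3% (19.3 to 23.4) in one of young liver. Young-only sites had the opposite order, 11.7% (8.98 to 15.2) in old and 30.6% (26.4 to 35.2) in young liver. The share marked in old liver in young-only sites minus that in old-only sites was -34.9 percentage points (interval of the difference -38.7 to -30.7), and the same difference for the young-liver mark was 9.37 points (4.63 to 14.4). Both-age sites were in between for the old mark, at 32.6%, and at 20.8% for the young mark. Sites outside domains carried the young mark at 26.1% and the old mark at 12.0%.

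That pattern was also in the chromatin around the sites. Over the distal length of old-only domains, 52.6% was in H3K9me3 of old liver and 20.4% in that of young liver, and over young-only domains 14.6% and 36.2%. Read against this, members were in old-liver H3K9me3 less often than the length of their domains: 36.8% of all members (35.1 to 38.6) against 42.9% of the length. For H3K9me3 of young liver the values were 22.4% (21.0 to 24.0) and 22.7%, and the interval holds the length's share. In all, 1294 members (44.2%) were marked at 1 age or more, where 49.8% of the domain length and 40.2% of all distal bins were. The remaining 55.8% of members lay outside the listed regions at both ages.

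**Figure D3:**
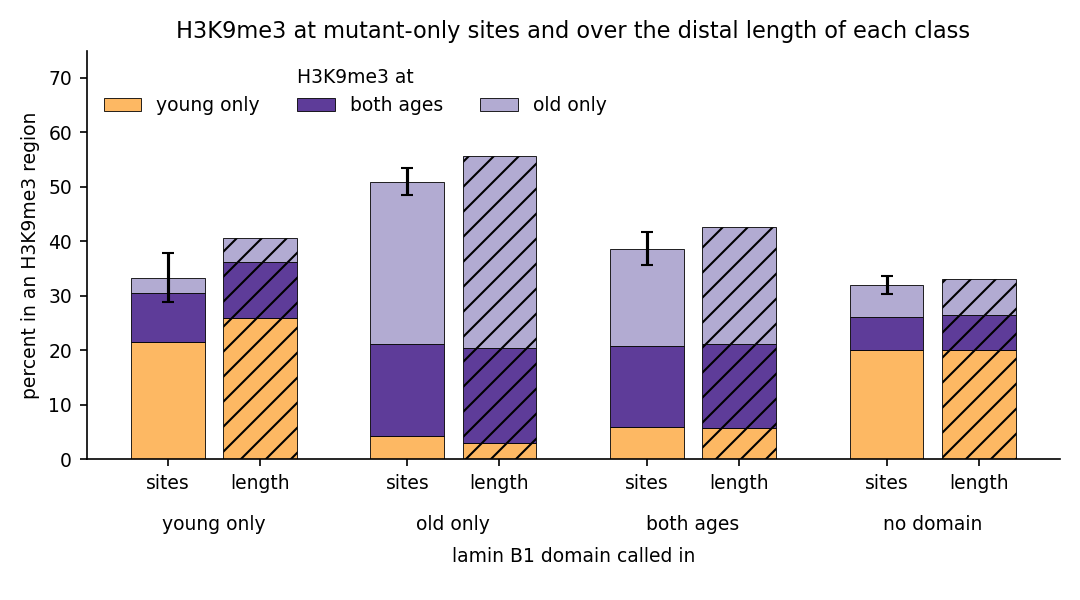
Percent in an H3K9me3 region (vertical axis) for mutant-only distal sites (plain bars) and for the distal length (hatched bars) of each lamin B1 class, split by the age at which the region was called; whiskers are Wilson 95% intervals of the total for sites. Old-only sites reach 51.0% against 55.7% of the length, and the old-only mark makes up most of both bars.

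Distal sites called in both genotypes were in old-liver H3K9me3 less often than the members. In old liver 21.9% of them were in H3K9me3 against 36.8% of the members, and wild-type-only sites stood at 34.1% (32.0 to 36.4). Within old-only domains the mutant-only, wild-type-only and shared values were 46.7%, 40.0% and 19.1%. In both-age domains they were 32.6%, 30.5% and 28.7%, with overlapping intervals. In old-only domains, mutant-only minus wild-type-only was 6.61 points (2.55 to 10.6). For the young-liver mark over all domains that difference was 1.15 points (-1.30 to 3.55). Mutant-only minus shared sites for the young-liver mark was 14.6 points in young-only (2.08 to 23.2) and 8.85 in old-only domains (4.69 to 12.5). In both-age domains it had the opposite sign, -6.24 (-12.1 to -0.830), with 27.0% of shared sites marked against 20.8% of members.

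The forkhead core TGTTTAC was present in 538 members (18.4%, 17.0 to 19.8). Windows of the same widths 5 kb to the right held it in 14.9%, a difference of 3.52 points (1.61 to 5.42), and windows 5 kb to the left in 12.9%. Over all windows of 900 bases that tile the distal autosomes the share was 13.0%. By class, the sites stood at 20.2% for both-age (205 of 1015), 19.4% for young-only (81 of 418) and 16.8% for old-only (252 of 1496). The difference from the right-hand windows was 5.71 points in both-age sites, with an interval above 0 from 2.42 upwards. It was 2.87 in young-only (-2.34 to 8.07) and 2.21 in old-only sites (-0.406 to 4.82), and both of these intervals include 0. Both-age sites had the core more often than old-only sites, by 3.35 points (0.274 to 6.50). Outside domains, 19.9% of mutant-only sites held the core, and the members' share differed from it by -1.48 points (-3.49 to 0.521).

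The core was more frequent in distal sites of the same domains called in both genotypes, and slightly more in those called in the wild type only. It was in 42.5% of the 739 sites called in both genotypes (39.0 to 46.1), with 10.7% of their right-hand windows, and in 23.0% of the 1781 wild-type-only sites. The members' share minus that of sites in both genotypes was -24.1 points (-28.0 to -20.3), and minus that of wild-type-only sites -4.60 (-7.02 to -2.22). By class, the latter interval excludes 0 in old-only domains (-8.56 to -2.00) and includes it in young-only (-15.2 to 0.246) and both-age domains (-7.15 to 0.838). In the central 200 bases, the density of the core was 1.46 times that of the class's distal sequence in young-only sites, 2.04 times in old-only and 2.40 times in both-age sites. It was 9.05 times in the sites of both genotypes and 2.72 times in the wild-type-only sites. A word of the same letters in reverse, CATTTGT, was in 20.7% of members and 19.7% of their right-hand windows, a difference of 0.990 points (-1.07 to 3.05).

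**Figure D4:**
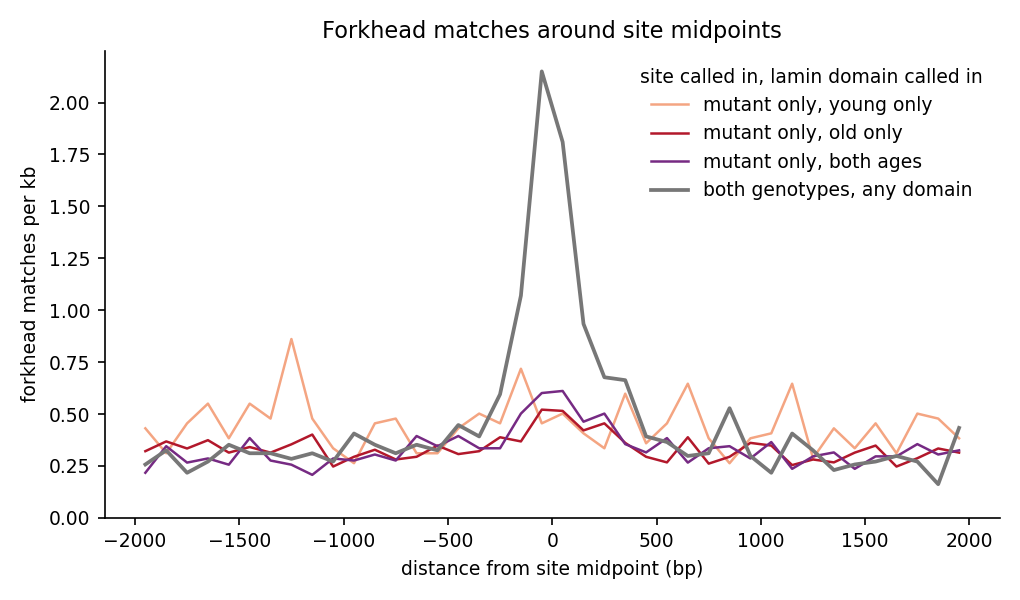
Matches of TGTTTAC or TATTTAC per kb (vertical axis) in bins of 100 bases by distance from the site midpoint (horizontal axis), for the 3 classes of members and for distal sites of both genotypes in any domain. The latter peak at 2.15 per kb next to the midpoint, and the both-age and old-only members at 0.611 and 0.521, while the young-only line, from 418 sites, has its highest bin away from the midpoint.

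The width of the call divided the members. Of those narrower than the list's median of 889 bp, 18.8% held the core against 10.1% of right-hand windows, a difference of 8.65 points (5.97 to 11.3). Of the 1623 members at least that wide, 18.1% held it against 18.7%, a difference of -0.616 points (-3.28 to 2.05). Against right-hand windows, the sign turned in young-only sites, from 8.33 to -0.800, and in old-only sites, from 7.34 to -1.93. The both-age difference went from 10.6 to 1.47. Left-hand windows of wide young-only, old-only and both-age sites held the core in 16.0%, 15.0% and 17.6%. Each was below the sites' own share, so the sign did not turn against the left-hand windows. Outside domains both groups of widths lay above their windows, by 6.81 points (4.31 to 9.31) and 4.93 points (2.14 to 7.72). In the central 200 bases, 8.50% of the narrow and 3.27% of the wide members had the core. Members were wider than the sites called in both genotypes, with medians of 944 and 632 bp.

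**Figure D5:**
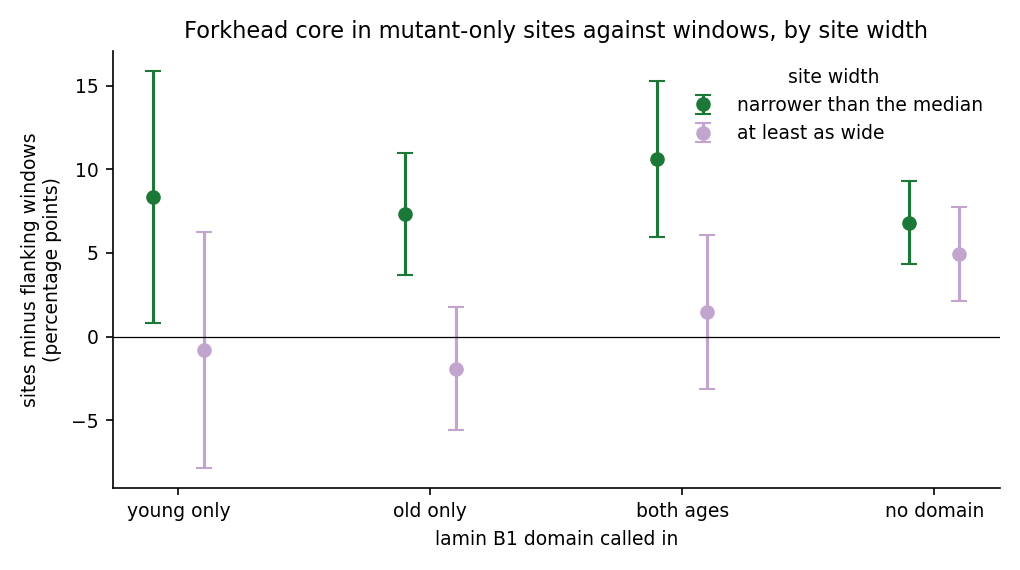
Percent of mutant-only distal sites with TGTTTAC minus that of equal windows 5 kb to the right (vertical axis, percentage points) by lamin B1 class, for sites narrower than the list's median and sites at least as wide; whiskers are Newcombe 95% intervals. Narrow sites lie above 0 in every class, at 8.33, 7.34, 10.6 and 6.81, while wide sites of the 3 domain classes have intervals that include 0.

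The place of a site in the mutant list went with the same measures. The lines are not in genome order, and what orders them is not given in the sources used here. Over 4 equal blocks of lines, the share of autosomal sites that overlapped a wild-type site was 47.2%, 9.86%, 6.08% and 3.83% from the first block to the last. The members counted 490, 791, 793 and 855 in these blocks. The core was in 25.3% of members in the first block (21.7 to 29.3) and in 15.6% of those in the last (13.3 to 18.1), with 17.4% in the second. Their right-hand windows held it in 18% in the first block and 13.5% in the last. H3K9me3 at 1 age or more covered 38.8%, 42.5%, 45.9% and 47.3% of members from first to last. Median width was 1129 bp in the first block and 836 bp in the last. The part of list order and width in these differences was not tested.

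Words for other factors differed from the windows in some classes. AGATAA, the core of GATA factors, was in 44.6% of members and 42.8% of right-hand windows, a difference of 1.78 points (-0.765 to 4.31). For Sox factors (CCATTGT or CCTTTGT) the values were 30.4% and 30.0%. The C/EBP word TTGCNNAA was more frequent in members than in right-hand windows by 3.11 points (0.673 to 5.54), near the forkhead difference. It was in 36.7% of old-only sites against 31.6% of windows, a difference of 5.15 points (1.75 to 8.53), and in 40.7% of young-only sites against 41.4%. The DR-1 element, bound by PPAR and RXR receptors, was searched as 2 copies of AGGTCA 1 base apart with up to 2 mismatches. It was in 16.3% of young-only sites, against 8.13% of windows on the right (difference 8.13 points, 3.72 to 12.6) and 10.5% on the left. In old-only sites it was in 16.0% against 15.4%, and in both-age sites in 14.9% against 12.6%. The young-only difference came with a low share in the windows, and the 3 classes of sites themselves did not differ beyond their intervals. Over the 900-base windows of each class, DR-1 was in 9.56% for young-only and 14.1% for both old-only and both-age domains. Wild-type-only sites in domains held it in 18.2%, against 15.6% of members, a difference of -2.61 points (-4.87 to -0.415). Each was counted on both strands, and because mismatches were allowed a DR-1 match can hold another word such as AGATAA.

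Base composition followed the domains. Median GC was 39.3% in young-only, 45.5% in old-only and 44.9% in both-age sites. The 900-base windows of the same classes had 39.3%, 45.6% and 45.1%. Outside domains, mutant-only sites and windows both had 39.2%. Old-only and both-age domains were thus richer in GC than sequence outside domains, while the paper describes lamina-associated domains as rich in A and T. Repeat-masked bases took a median 19.6% of a member, against 22.1% of the windows. Both-age sites lay nearest to genes, at a median 25.5 kb from a coding start, against 48.1 kb for old-only, 56.2 kb for young-only and 158 kb for sites outside domains. Within 50 kb of a start were 74.9% of both-age, 51.4% of old-only and 48.1% of young-only sites. Introns of coding genes held 56.7%, 46.7% and 49.0% of the 3 classes in that order, and exons 7.39%, 4.48% and 3.35%, each close to the share of the class's length (55.3%, 47.0% and 44.8% for introns). The widest members were a young-only site of 3389 bp 32.6 kb from Gvin1, an interferon-induced large GTPase, an old-only site of 3199 bp 294 kb from Dio3, the deiodinase that inactivates thyroid hormone, and a both-age site of 4320 bp 85.0 kb from Vmn1r2, a vomeronasal receptor. All 3 were between genes and in H3K9me3 at both ages.

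Members were nearest to 2290 of 20780 autosomal protein-coding genes (11.0%). Among 22 hepatocyte transcription factors, 10 (45.5%) were the nearest gene of a member, with 20 members in all. These genes had more distal domain around them, 182 kb a gene against 45.1 kb over all genes, and per Mb of that length the list had 4.99 members against 3.13 over all. The members nearest to a start in this list were an old-only site 6.12 kb into Nr2f2, a nuclear receptor, and a both-age site 11.9 kb downstream of Foxa1, a paralog of Foxa2 that binds the same core. Foxa1 had 3 members, 2 young-only and 1 both-age. Nr2f1 had a young-only site at 15.1 kb, and Prox1, a regulator of hepatoblast fate, 4 old-only sites, the closest at 22.6 kb inside the gene. Foxo1, the forkhead factor that insulin holds out of the nucleus, had 3 old-only sites. Gata6, a GATA factor of endoderm, had 3 both-age sites, the closest 30.6 kb upstream. That site lay within a region that the study drew for a decrease of both lamin B1 and H3K9me3 in old liver. In the lists used here it was outside the H3K9me3 regions at both ages.

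In the lists of lipid genes, 5 of 31 PPAR targets and oxidation genes (16.1%), 7 of 26 LXR targets and lipid synthesis genes (26.9%) and 3 of 20 lipid droplet and uptake genes (15.0%) were nearest to a member. Per Mb of domain around the genes, these lists had 5.01, 4.56 and 4.93 members, on 6, 10 and 3 sites. Over all autosomal coding genes the values were 11.0% and 3.13 per Mb. The domain length was 38.6, 84.3 and 30.4 kb a gene in the 3 lists, against 45.1 kb over all genes. With so few sites, no difference from all genes is read from these densities. All but 1 of the 5 PPAR list genes had old-only sites. Ppara, the receptor that drives fatty acid oxidation, had one inside the gene, at chr15:85742572-85743398, in H3K9me3 of young liver only. Others were Ppargc1b (36.5 kb), Acsl1 (70.7 kb) and Pparg (60.9 kb), of which Pparg's was young-only. In the synthesis list, Mlxipl, the carbohydrate response factor ChREBP, had 2 both-age sites, the closest 11.2 kb into the gene. Elovl5, Insig1, Insig2 and Lpin1 had old-only sites at 12.2, 15.8, 18.2 and 48.6 kb.

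The lipid droplet genes with members were Pnpla3 (18.1 kb), Lpl (28.1 kb) and Lipc (103 kb), all old-only, and the last 2 were in H3K9me3 of old liver. Other lists had few. Of 23 bile acid and xenobiotic genes only Nr1i2, the pregnane X receptor, was nearest to members (4.35%), with a both-age site 29.9 kb into the gene and a young-only site. Of 26 lamina and heterochromatin genes only Tor1aip1, an inner nuclear membrane protein, had one (3.85%), an old-only site 18.5 kb away. Of 34 neuronal adhesion and synapse genes, long genes of other tissues, 3 (8.82%) had a member, all young-only and all in H3K9me3 of young liver: Cntnap5b at 241 kb, Cntnap2 at 653 kb and Robo2 at 740 kb. The neuronal list had 0.968 members per Mb of domain and the lamina list 0.706, on 3 sites and 1 site. These counts are a description of fixed lists, with no test.

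Pparg, the adipogenic receptor whose activity in liver is linked to lipid storage, held 3 members in its introns, and all 3 were young-only. They lay at chr6:115421428-115422314, chr6:115465118-115465956 and chr6:115466220-115467420, inside the young domain chr6:114640001-115680000, where no old domain covered them. The gap from their midpoints to the nearest old domain was 48.1, 4.46 and 3.18 kb. None was in H3K9me3 at either age, and none held TGTTTAC or TATTTAC. Each held AGATAA 2 times, the middle one also the DR-1 match, and the others 2 and 1 C/EBP words. The central 200 bases of the first site are shown because they hold neither of these 2 exact words, and looser forkhead variants were not searched.
Pparg site, chr6:115421771-115421970: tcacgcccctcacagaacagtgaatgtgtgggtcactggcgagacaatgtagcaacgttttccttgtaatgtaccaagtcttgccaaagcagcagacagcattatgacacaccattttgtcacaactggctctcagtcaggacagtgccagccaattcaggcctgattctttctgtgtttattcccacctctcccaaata

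Of the other regions that the study drew, the site near Bahcc1, chr11:120206175-120206644, was an old-only member of 470 bp, 26.5 kb from the gene start. It lay 144 kb from the nearest young domain, in the old domain chr11:115050001-121850000, and in H3K9me3 of old liver only. It held TATTTAC and 1 C/EBP word. The site near Tob2, chr15:81839572-81841023, was a both-age member outside H3K9me3 at both ages, with 1 GATA and 1 DR-1 match and no forkhead word. The site near Shroom3 on chromosome 5 overlapped a wild-type site and was no member. The Bahcc1 sequence, with its single match in capitals on the complement strand, is given below.
Bahcc1 site, chr11:120206310-120206509: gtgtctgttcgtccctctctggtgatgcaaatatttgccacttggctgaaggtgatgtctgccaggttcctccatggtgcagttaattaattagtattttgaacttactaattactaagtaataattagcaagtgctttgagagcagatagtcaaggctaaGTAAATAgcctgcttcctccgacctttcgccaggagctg

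The genes nearest to the most members were outside those lists and were picked after the counts were seen. Sox5, which encodes a Sox factor of cartilage and nerve, had 9 old-only sites, all inside its 954 kb. Sall1 had 8 old-only sites, 2 of them in the gene and the farthest 615 kb away. Zfp704 had 7, again all old-only, with 5 in the gene. Ccdc6 and Rere, the latter a nuclear receptor corepressor, had 6 both-age sites each, none and 5 of them in the gene. Btg1, an antiproliferative gene, had 4 young-only sites between 12.3 and 162 kb, and Chd7, a chromatin remodeller, 4 both-age sites in the gene. Mkln1 had 5 old-only sites, none in the gene. Each of these genes had members of a single lamin class, while Ank3 and Egln3, with 4 members each, had members of 2 classes.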

How the data were processed

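Foxa2 was measured by ChIP-Seq in Zmpste24 mutant and wild-type livers, and lamin B1 and H3K9me3 in livers of both ages. The authors used BWA (mm10) and Picard, retained unique reads, pooled replicates, and called domains of lamin B1 with Epic (windows of 10 kb) and Foxa2 sites with PeakSeq against input, after downsampling the mutant reads to the wild-type number. Input was a mixture from young and old wild-type livers. The labels name SICER with no role, and which caller made the H3K9me3 regions is not given in the sources used here. The deposited values in the 6 lists used are positions, with no signal or score, so no spread between replicates can be given. The paper gives aligned reads pooled by group and not by sample. For lamin B1 they were more numerous in young than in old liver, and for H3K9me3 in old than in young liver. For lamin B1 the paper relied on the normalization of its domain caller. The part of depth in the differences between ages was not tested.

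Sites, domains and gene starts were joined by midpoint, and an overlap of 1 bp counted as shared. Lengths were counted in bins of 1 kb without unknown bases. Shares carry Wilson, differences Newcombe and densities exact Poisson intervals (95%). They cover counting error, and no p-value was computed. Flanking windows may hold other sites. Genes came from GENCODE vM21, bases from RefSeq GRCm38.p6, and all 8 words' counts from Python 3.11.15 with numpy 2.4.6 and scipy 1.17.1, tested on simulated data; matplotlib 3.10.9 drew the plots. Named were the widest member of each class, the fullest domain at each age, the densest and sparsest chromosome, up to 4 genes a list by distance, the study's drawn regions and the members richest in forkhead words. Other genes were named after their values were seen. The members, words and gene lists were chosen with earlier results of these data known. H3K9me2 and Foxa2 in old livers were not analysed here. Some members that the naming rule selects are not reported here. Alternatives of overlap, distance, annotation, domain length, width, line order, word and window were tried.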

Additional observations from a re-analysis of the deposited data

How the results depend on the processing

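Of 208 alternative values for 30 results, 168 stayed within the interval of the reported share, or within 1.5 times the reported count, 38 moved and 2 turned sign. Sites at least as wide as the list's median gave 1623 members (250 young-only, 828 old-only and 545 both-age), and the narrower sites 1306 (168, 668 and 470). The earlier lines of the list, up to its middle, gave 1281 (186, 636 and 459). Line order and narrow width were chosen after seeing the data. The old-liver H3K9me3 share of old-only sites was 49.3% in wide, 43.4% in narrow and 41.0% in earlier sites. That of both-age sites was 37.1% in wide and 27.4% in narrow sites, and their young-liver share 23.9% and 17.2%. The forkhead difference from right-hand windows turned to -0.800 points in young-only and -1.93 in old-only wide sites. It was 1.47 in both-age wide sites, against 8.33, 7.34 and 10.6 in narrow sites. Left-hand windows of the wide sites held the core in 16.0%, 15.0% and 17.6%, each below the sites' own share. The old-only share with the core was 19.0% when an overlap of 50% was asked for in both directions, and 19.8% in earlier sites. The cause of these shifts was not tested. By construction, the share with a forkhead word moved to 4.55%, 5.28% and 6.50% (young-only, old-only, both-age) in the central 200 bases and to 39.7%, 30.7% and 35.5% with TATTTAC added, and CATTTGT gave 27.5%, 20.5% and 18.1%. With all annotated genes, intergenic sites were 37.2% of members (41.6%, 40.8% and 30.1%). Within 100 kb, 0 of the 3 neuronal genes remained. No paired analysis was possible because the replicates were merged before calling, and for the same reason no replicate could be left out. The lists give no score, so a stricter call could not be set.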
